A study of Mus musculus with 6 samples.

Results

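Genes of the major histocompatibility complex (MHC) and of antigen presentation were compared between mouse leukemia cells with and without Ddit4. The set was a fixed list of 40 gene symbols, and all 40 were found among the 55421 genes of the count table and passed the filter on low counts. The leukemia cells expressed AML1-ETO9a (AE9a), a truncated AML1-ETO fusion that causes acute myeloid leukemia in mice. It was introduced with a retrovirus into c-Kit+ bone marrow cells of C57BL/6 mice of 6 to 8 weeks of age, and GFP marked the infected cells. Donors were either Ddit4+/+ or Ddit4-/-, the cells grew in irradiated C57BL/6 recipients, and leukemia cells from the bone marrow gave 3 AE9a-Ddit4+/+ libraries and 3 AE9a-Ddit4-/- libraries. The C57BL/6 mice bought for the study were female, and the sex of the Ddit4-/- donors was not stated. Both groups were made with the same fusion. Ddit4 encodes an inhibitor of mTOR signaling that is induced by stress and hypoxia. Whether the 3 libraries of a genotype came from separate leukemias was not stated, so p-values measure the spread between libraries, which may be technical.

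MHC class I molecules carry peptides from the inside of the cell to its surface, where CD8+ T cells and natural killer (NK) cells read them. The peptides are cut by the proteasome, whose inducible form is the immunoproteasome, and are pumped into the endoplasmic reticulum by the TAP transporter, where a loading complex places them on the heavy chain and B2m. NLRC5 is the transcriptional coactivator of class I genes. MHC class II molecules present peptides from endosomes to CD4+ T cells. Their invariant chain CD74 is exchanged for peptide with the help of H2-DM, which H2-O restrains, and their transcription depends on the coactivator CIITA and on the RFX complex. Class II is found mainly on B cells, dendritic cells and macrophages, while class I is found on nearly all nucleated cells. Interferon raises both pathways in many cell types.

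The sequences before the start sites of 6 members are shown first because several class I members share an arrangement of short motifs there. They are the 250 bases before the start in RefSeq (GRCm38.p6), read 5′ to 3′ on the strand of the gene, and capitals mark every match of the motifs searched on both strands. The motifs were CCAAT (or ATTGG on the other strand), which NF-Y binds in the Y box, GGGATTCCC, an NF-κB site of class I enhancer A, GAAANNGAA and its mirrored form GAANNGAAA, both cores of interferon-stimulated response elements, and ACAGATG, a part of the class II X box.
H2-K1, chr17:34000334-34000583, minus strand: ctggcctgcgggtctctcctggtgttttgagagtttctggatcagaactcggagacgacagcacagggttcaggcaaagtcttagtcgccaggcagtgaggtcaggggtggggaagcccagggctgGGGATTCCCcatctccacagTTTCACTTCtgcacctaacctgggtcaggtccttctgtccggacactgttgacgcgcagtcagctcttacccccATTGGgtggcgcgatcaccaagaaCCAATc
H2-Q4, chr17:35379367-35379616, plus strand: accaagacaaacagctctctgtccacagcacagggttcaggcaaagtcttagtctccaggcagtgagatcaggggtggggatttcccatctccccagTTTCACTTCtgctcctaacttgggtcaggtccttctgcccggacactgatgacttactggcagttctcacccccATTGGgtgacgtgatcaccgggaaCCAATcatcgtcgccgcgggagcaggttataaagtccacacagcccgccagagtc
H2-Q7, chr17:35438905-35439154, plus strand: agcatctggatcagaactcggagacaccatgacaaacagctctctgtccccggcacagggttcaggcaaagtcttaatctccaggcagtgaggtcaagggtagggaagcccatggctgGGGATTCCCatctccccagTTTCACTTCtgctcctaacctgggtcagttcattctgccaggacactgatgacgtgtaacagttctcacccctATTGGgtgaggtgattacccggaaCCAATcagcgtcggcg
B2m, chr2:122147437-122147686, plus strand: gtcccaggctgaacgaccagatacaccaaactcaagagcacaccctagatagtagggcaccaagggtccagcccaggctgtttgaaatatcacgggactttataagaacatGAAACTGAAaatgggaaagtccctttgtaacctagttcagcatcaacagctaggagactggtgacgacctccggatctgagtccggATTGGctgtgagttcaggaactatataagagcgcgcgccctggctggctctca
H2-Aa, chr17:34287824-34288073, minus strand: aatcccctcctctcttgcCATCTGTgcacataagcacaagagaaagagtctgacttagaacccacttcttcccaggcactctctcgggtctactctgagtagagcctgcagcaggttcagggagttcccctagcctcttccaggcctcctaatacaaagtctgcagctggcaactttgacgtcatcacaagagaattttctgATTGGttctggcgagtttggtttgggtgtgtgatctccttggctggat
H2-Ob, chr17:34238655-34238904, plus strand: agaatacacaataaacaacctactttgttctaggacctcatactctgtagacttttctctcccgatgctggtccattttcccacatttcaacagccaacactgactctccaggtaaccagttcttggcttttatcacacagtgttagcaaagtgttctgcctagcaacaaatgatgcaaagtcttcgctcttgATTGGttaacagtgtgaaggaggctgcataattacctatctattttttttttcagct

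Of the 40 members, 30 had a window of 250 bases before to 50 bases after the start in the RefSeq table, and H2-Ab1, Cd74, Ciita, Rfxap, Cd1d1, Nlrc5, Tap2, Tapbpl, Cd86 and Cd40 did not. CCAAT was present in 23 of the 30 windows (76.7%), against 41.1% of the 27025 genes of the table. Windows of all 3 classical class I genes, all 6 non-classical genes, both class II molecules and all 5 class II loading genes held it. GGGATTCCC was found in 4 members (13.3%), H2-K1, H2-D1, H2-Q6 and H2-Q7, and in 0.41% of all genes. In H2-K1 it began at position -124 and in H2-Q7 at position -132, where 0 is the start. GAAANNGAA was present in 6 members (20.0%), namely B2m, H2-T22, H2-T23, Erap1, Psme1 and Cd274, against 9.76% of all genes. Its mirrored form, which was chosen after the windows had been seen, was found in 7 members (23.3%) against 8.68% of all genes, at position -104 in H2-K1, -113 in H2-Q7 and -153 in H2-Q4. Whether the motifs go with the size of the change was not tested. H2-K1, H2-D1, H2-Q6 and H2-Q7, which held GGGATTCCC, rose, and H2-Q4, which lacked an exact match, rose as well. Of the members with the mirrored form, H2-K1, H2-D1, H2-Q4, H2-Q6 and H2-Q7 rose. H2-M3, which held it at position -101, and Psme1 did not pass the test. ACAGATG was found in 3 members (10.0%) against 5.67%, namely H2-Oa at position -137, H2-Aa at position -232 and Psmb10 at position -82. Psmb10 is not a class II gene, and the match in H2-Aa lay far from its CCAAT match at position -48. A match of these letters therefore does not locate an X box, and a window without a match, such as that of H2-Ob, may still hold one. Class I genes are copies of one another, so their windows are not independent cases. These matches describe letters and no binding was measured.

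The libraries held 62141558 to 72717681 counts. Ddit4 itself fell by 1.56 on the log2 scale (SE 0.28, edgeR adjusted p = 0.00635), from 161 to 342 CPM (counts per 1e+06 counts of the scaled library) in the AE9a-Ddit4+/+ libraries to 77.7 to 85.9 CPM in the AE9a-Ddit4-/- libraries. Some transcript of the gene was therefore still counted. Mitochondrially encoded genes took 13.3% ± 2.75 (SD, n = 3) of the counts in AE9a-Ddit4-/- and 6.17% ± 1.52 (n = 3) in AE9a-Ddit4+/+ (exact permutation test, two-sided, p = 0.1, the smallest that 3 against 3 can give). Sex-linked transcripts also went with the genotype. Ddx3y, which lies on the Y chromosome, was at 88.2 to 125 CPM in AE9a-Ddit4-/- and at most 0.0774 CPM in AE9a-Ddit4+/+. Xist, which is expressed from the inactive X chromosome of female cells, was at 1032, 566 and 884 CPM in AE9a-Ddit4+/+ and still at 63.2, 20.3 and 129 CPM in AE9a-Ddit4-/-. Genotype and sex therefore cannot be told apart, and the AE9a-Ddit4-/- libraries held some Xist RNA beside that of the Y chromosome. The source of this Xist RNA was not tested. As markers of the labelled cells, Ptprc, Kit, Runx1t1, Spi1 and Cd34 were counted in all 6 libraries, and 4 of the 5, all but Spi1, were higher in AE9a-Ddit4-/-. Kit was at 14.6 to 31.6 CPM in AE9a-Ddit4+/+ and 304 to 509 CPM in AE9a-Ddit4-/-. Cd34 was at 5.68, 9.83 and 2.26 CPM against 507, 558 and 493 CPM. Runx1t1 (ETO) was at 6.47, 11.1 and 18.1 CPM against 206, 141 and 69.9 CPM. The share of AE9a cells in each library was not tested.

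Of the 40 antigen presentation genes, 18 rose in AE9a-Ddit4-/- cells, 1 fell and 21 did not pass the test, at an edgeR adjusted p below 0.05 over 18375 genes. Across all genes tested, 19.4% were higher and 10.7% lower. The members' median log2 fold change was 0.99, against 0.04 over all genes tested. All 3 AE9a-Ddit4-/- libraries lay above all 3 AE9a-Ddit4+/+ libraries for 24 members and below them for 2, where 27.9% and 22.2% of all genes did so. Among those that rose were both classical class I heavy chains, 4 of 7 non-classical class I genes, B2m, Nlrc5 and 3 of 5 class II loading genes. Most of the peptide supply genes did not pass. Among the RFX subunits Rfxap fell, while Rfx5 and Rfxank did not pass.

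**Figure D1:**
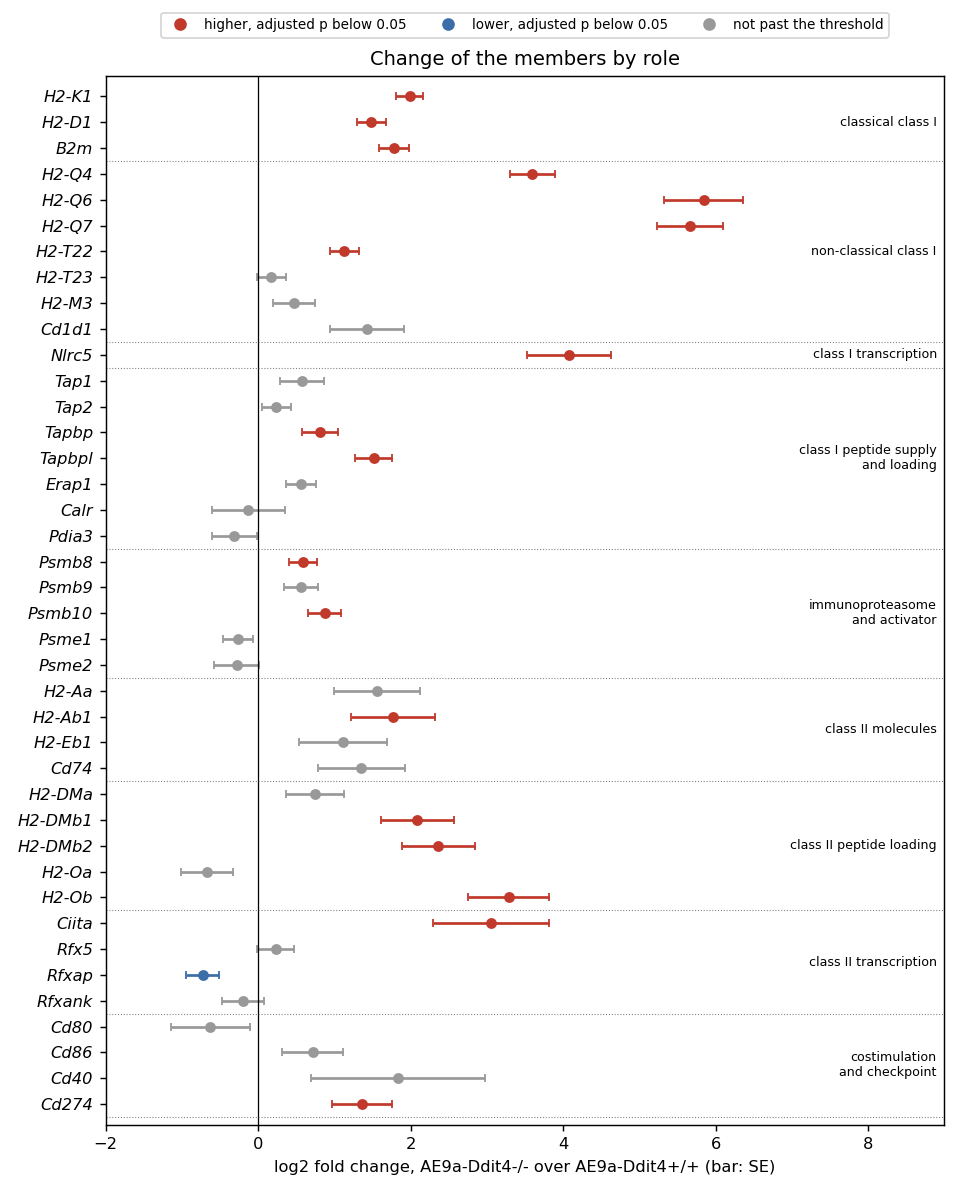
Log2 fold change of each of the 40 members, AE9a-Ddit4-/- over AE9a-Ddit4+/+, with its standard error as a bar, grouped by role. The largest changes are those of H2-Q6 (5.84) and H2-Q7 (5.67), and Rfxap is the member that fell.

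The 3 classical class I genes rose together. H2-K1, a heavy chain that presents peptide to CD8+ T cells, was at 333, 308 and 289 CPM in AE9a-Ddit4+/+ libraries 1 to 3 and at 1329, 1257 and 1095 CPM in AE9a-Ddit4-/- libraries 1 to 3. Its groups were far apart, with little spread within either. It rose 3.96-fold (log2 1.99, SE 0.17, edgeR adjusted p = 0.000495). H2-D1, the other classical heavy chain of this strain, was at 662, 754 and 596 CPM against 2071, 1926 and 1616 CPM. It rose 2.79-fold (log2 1.48, SE 0.19, edgeR adjusted p = 0.00167). B2m, the light chain that all these heavy chains need, was at 514, 396 and 362 CPM against 1429, 1573 and 1376 CPM, and rose 3.44-fold (log2 1.78, SE 0.20, edgeR adjusted p = 0.00104). Per kb of exon, the ratio of B2m to the summed H2-K1 and H2-D1 was 1.35 ± 0.24 (SD, n = 3) in AE9a-Ddit4+/+ and 1.49 ± 0.15 (n = 3) in AE9a-Ddit4-/-, with overlapping groups.

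Non-classical class I genes differed widely among themselves. H2-Q6 and H2-Q7, Qa-2 genes of the Q region at chr17:35424850-35430055 and chr17:35439155-35443773, showed the largest change of all members. H2-Q6 was at 8.56, 15.5 and 4.95 CPM in AE9a-Ddit4+/+ and at 656, 637 and 372 CPM in AE9a-Ddit4-/-, a 57.3-fold rise (log2 5.84, SE 0.51, edgeR adjusted p = 0.000504). H2-Q7 was at 5.54, 8.81 and 3.81 CPM against 332, 386 and 205 CPM, a 50.8-fold rise (log2 5.67, SE 0.43, edgeR adjusted p = 0.000318). In both, AE9a-Ddit4-/- library 3 was the lowest of its group and still far above every AE9a-Ddit4+/+ library. H2-Q4, a neighbouring gene, was at 35.3, 63.1 and 37.6 CPM against 643, 532 and 469 CPM, which is 12.1-fold (log2 3.60, SE 0.29, edgeR adjusted p = 0.000432). H2-T22, a ligand of some γδ T cells, rose 2.19-fold, from 44.0, 49.6 and 42.1 CPM to 116, 89.8 and 91.7 CPM (edgeR adjusted p = 0.00457).

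The remaining 3 non-classical genes did not pass. H2-T23 encodes Qa-1, which NK cells read through the receptor NKG2A, and was at 185, 190 and 212 CPM against 247, 241 and 174 CPM. Its groups overlapped, since AE9a-Ddit4-/- library 3 was the lowest of all 6 (log2 0.17, edgeR adjusted p = 0.541). H2-M3, which presents formylated peptides, had a log2 fold change of 0.47 (edgeR adjusted p = 0.236). Cd1d1 presents lipids to NKT cells and was at 1.92, 1.90 and 0.913 CPM against 3.77, 3.01 and 5.94 CPM, so its groups did not overlap, while the test did not pass (log2 1.43, SE 0.48, edgeR adjusted p = 0.06). Exon lengths joined the exons of all annotated transcripts of a gene, so levels per kb compare genes only roughly. Per kb of exon, the level of H2-Q6 was 4.64 ± 2.58 CPM (SD, n = 3) in AE9a-Ddit4+/+ and 266 ± 76.2 CPM (n = 3) in AE9a-Ddit4-/-, while that of H2-K1 was 105 ± 7.46 CPM and 418 ± 40.8 CPM.

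Class I copies can share reads. Of all stretches of 150 bases, the length of a read, in its transcripts, H2-Q6 shared 5.99% with H2-Q7, and H2-Q7 shared 5.90% with H2-Q10, H2-Q6 and H2-Q5. The H2-D1 share was 1.35% and those of H2-T22 and H2-T23 were below it, while H2-K1, H2-Q4 and B2m shared none. The deposited values do not show how such reads were assigned, so the split between H2-Q6 and H2-Q7 is uncertain.

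**Figure D2:**
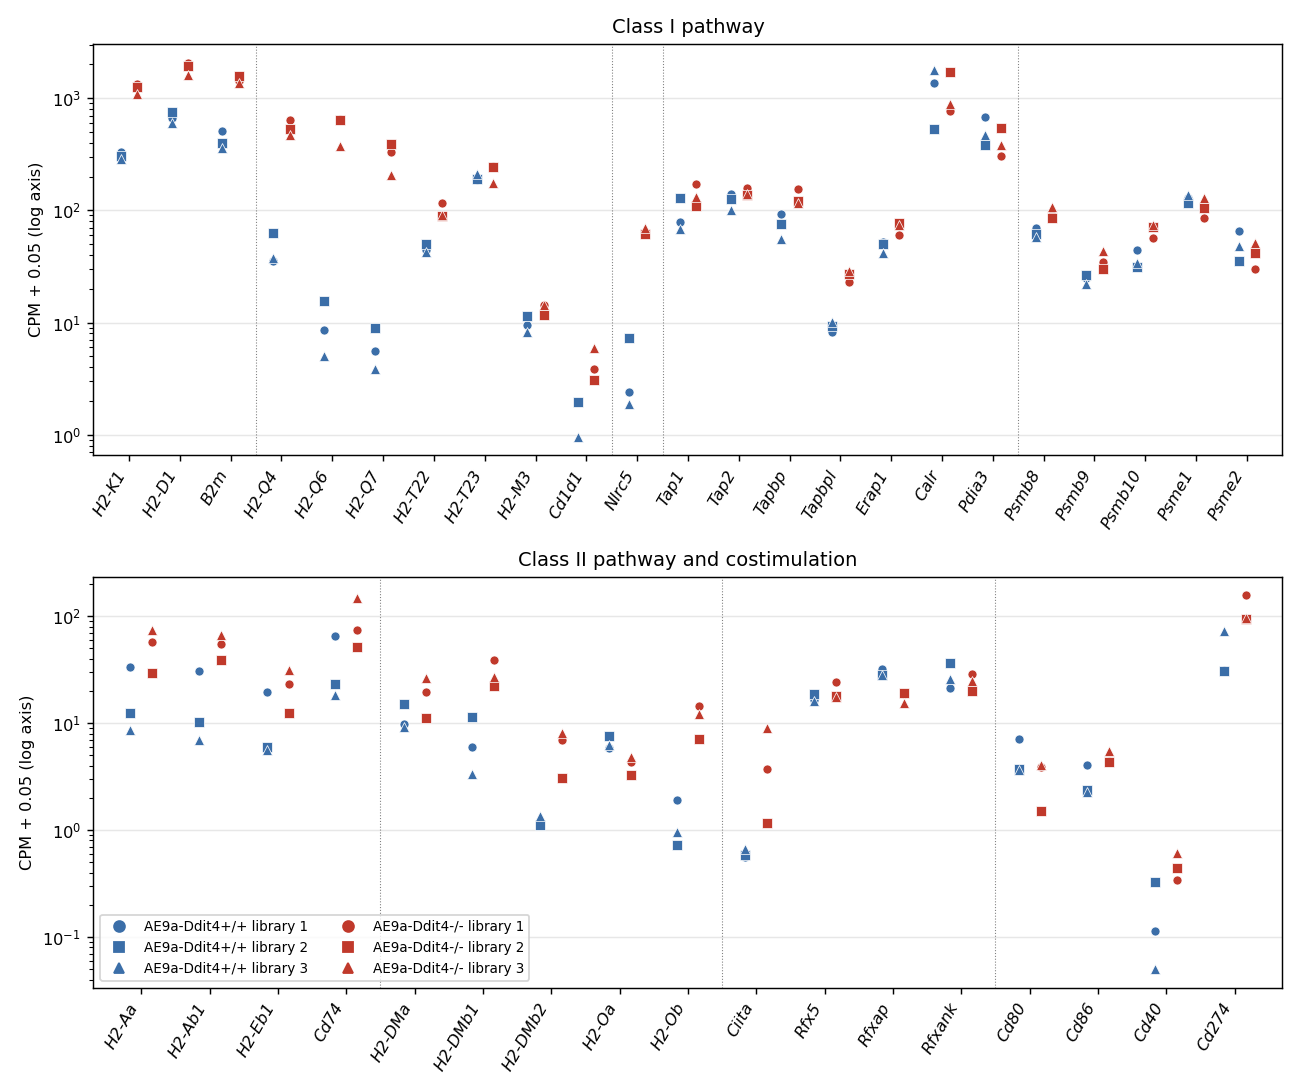
CPM of each member in each of the 6 libraries (log axis, 0.05 added), blue for AE9a-Ddit4+/+ and red for AE9a-Ddit4-/-, with the marker shape for the library number. Both groups of H2-K1, H2-Q4, H2-Q6, H2-Q7 and Nlrc5 lie far apart, whereas those of Tap2, Calr and Psme1 overlap.

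Nlrc5, the class I coactivator at chr8:94434356-94527272, also rose. It was at 2.37, 7.28 and 1.84 CPM in AE9a-Ddit4+/+ and at 63.3, 61.4 and 69.6 CPM in AE9a-Ddit4-/-. The 3 AE9a-Ddit4-/- libraries were nearly equal, and AE9a-Ddit4+/+ library 2 was the highest of its group, as it was for H2-Q4, H2-Q6 and H2-Q7. The rise was 16.9-fold (log2 4.08, SE 0.55, edgeR adjusted p = 0.00218).

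Most genes of peptide supply and loading did not pass. Of the 7, Tapbp and Tapbpl rose, and Tap1, Tap2, Erap1, Calr and Pdia3 did not pass. Tapbpl (TAPBPR), which edits peptides outside the loading complex, was at 8.15, 9.31 and 10.1 CPM against 22.9, 26.8 and 29.0 CPM, a 2.85-fold rise (log2 1.51, SE 0.24, edgeR adjusted p = 0.00372). Tapbp (tapasin), which bridges TAP and the heavy chain, was at 92.5, 75.4 and 55.6 CPM against 155, 121 and 116 CPM (log2 0.81, SE 0.24, edgeR adjusted p = 0.0384). Its call was lost without any 1 of 5 libraries, all but AE9a-Ddit4+/+ library 1, with log2 values of 0.63 to 0.84 and edgeR adjusted p of 0.0629 to 0.115.

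The transporter subunits did not pass in the comparison of all 6 libraries. Tap1 was at 79.1, 129 and 68.5 CPM against 170, 110 and 132 CPM (log2 0.58, edgeR adjusted p = 0.173), and without AE9a-Ddit4+/+ library 2 its log2 fold change was 0.89 (edgeR adjusted p = 0.0346). Tap2 had a log2 fold change of 0.24 (edgeR adjusted p = 0.378). Erap1, which trims peptides in the endoplasmic reticulum, was at 51.9, 49.8 and 41.6 CPM against 59.8, 76.5 and 74.7 CPM, groups that did not overlap (log2 0.56, edgeR adjusted p = 0.0653). The chaperone Calr spread widely in both groups, from 534 to 1795 CPM in AE9a-Ddit4+/+ and from 765 to 1719 CPM in AE9a-Ddit4-/-. Pdia3, the disulfide isomerase of the loading complex, had a log2 fold change of -0.32 (SE 0.30). None of 5 related folding genes (Canx, Hspa5, Hsp90b1, Uggt1 and Ganab) passed the edgeR test. At an unadjusted p below 0.05 by edgeR, and at an adjusted one by DESeq2, 1 of the 5 was higher. DESeq2 called 23.7% of all genes higher, and the share at the unadjusted threshold was not counted.

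Of the 5 immunoproteasome and activator subunits, Psmb8 and Psmb10 rose and 3 did not pass. Psmb10 (MECL-1) was at 43.9, 31.4 and 34.1 CPM against 56.2, 70.6 and 73.4 CPM (log2 0.87, SE 0.22, edgeR adjusted p = 0.0202). Psmb8 (LMP7) was at 69.7, 61.9 and 57.5 CPM against 91.5, 85.3 and 107 CPM (log2 0.59, SE 0.18, edgeR adjusted p = 0.0452). Psmb9 (LMP2) was at 24.9, 26.7 and 22 CPM against 34.7, 29.98 and 43.8 CPM and did not pass (log2 0.56, edgeR adjusted p = 0.098). The groups of these 3 subunits did not overlap. Without any 1 library Psmb8 did not pass (log2 0.45 to 0.66, edgeR adjusted p 0.0708 to 0.162), and Psmb10 did not pass on leaving out library 2 (edgeR adjusted p = 0.0756) or 3 (0.0827) of AE9a-Ddit4-/-, or library 3 of AE9a-Ddit4+/+ (0.0745). The activator subunits Psme1 and Psme2 (PA28α and PA28β) had log2 fold changes of -0.26 and -0.28 and did not pass.

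Each immunoproteasome subunit takes the place of a constitutive one, so both were set against each other per kb of exon, without a test. The ratio of Psmb10 to Psmb7 was 0.544 ± 0.0732 (SD, n = 3) in AE9a-Ddit4+/+ and 1.73 ± 0.193 (n = 3) in AE9a-Ddit4-/-. For Psmb8 to Psmb5 it was 0.228 ± 0.0296 and 0.456 ± 0.125. For Psmb9 to Psmb6 it was 0.126 ± 0.0290 and 0.202 ± 0.0326. No ratio overlapped between the groups. Since exon lengths joined all annotated transcripts, a ratio compares the genotypes and not the amounts of both subunits. Psmb7 itself fell (log2 -0.80, edgeR adjusted p = 0.0486), as did Psme3 (PA28γ, log2 -1.56, edgeR adjusted p = 0.0143), while Psmb5 and Psmb6 did not pass.

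**Figure D3:**
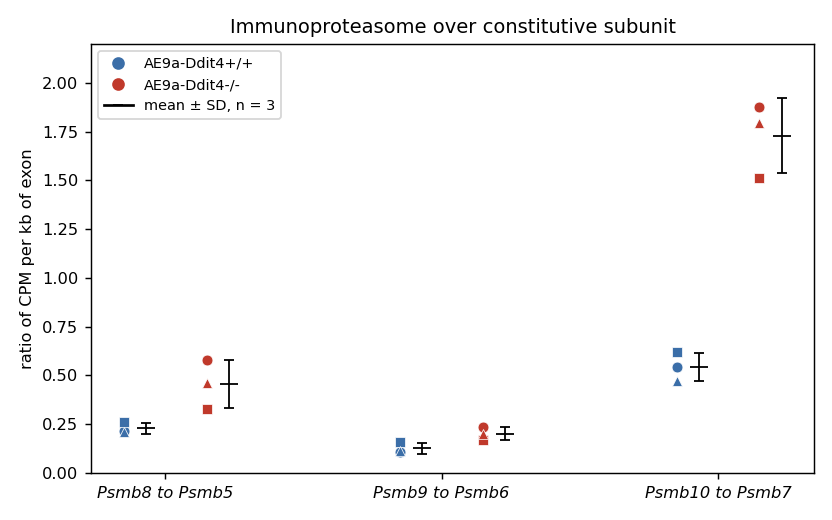
Ratio of each immunoproteasome subunit to its constitutive counterpart (CPM per kb of exon) in each library, with mean and SD (n = 3). The Psmb10 to Psmb7 ratio moves from 0.544 to 1.73, and the other ratios also lie higher in every AE9a-Ddit4-/- library.

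The class II molecules were higher on average in AE9a-Ddit4-/- cells, but only H2-Ab1 passed the test. H2-Ab1, the β chain of I-A, was at 30.5, 10.3 and 6.87 CPM in AE9a-Ddit4+/+ and at 55.3, 39.3 and 67.4 CPM in AE9a-Ddit4-/- (log2 1.77, SE 0.55, edgeR adjusted p = 0.0467). H2-Aa, its α chain, was at 33.7, 12.3 and 8.67 CPM against 57.5, 29.3 and 74.0 CPM (log2 1.56, SE 0.56, edgeR adjusted p = 0.0734). H2-Eb1 was at 19.5, 5.97 and 5.56 CPM against 23.2, 12.4 and 31.3 CPM (log2 1.11, edgeR adjusted p = 0.185). Cd74, the invariant chain, was at 66.0, 23.4 and 18.3 CPM against 75.0, 51.1 and 149 CPM (log2 1.35, edgeR adjusted p = 0.115). All of them were highest in library 1 among the AE9a-Ddit4+/+ libraries and lowest in library 2 among the AE9a-Ddit4-/- libraries.

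These calls depended on the libraries and on the test. Without AE9a-Ddit4+/+ library 1, the log2 fold changes were 2.35 for H2-Aa (edgeR adjusted p = 0.0172), 2.65 for H2-Ab1 (0.00566), 1.95 for H2-Eb1 (0.0301) and 2.13 for Cd74 (0.0283). When any 1 of the other 5 libraries was left out, H2-Ab1 did not pass (log2 1.40 to 1.92, edgeR adjusted p 0.065 to 0.122). With all 6 libraries, the DESeq2 Wald test called H2-Aa (adjusted p = 0.0186), H2-Ab1 (0.00559) and Cd74 (0.0499), but not H2-Eb1 (0.118). Without AE9a-Ddit4-/- library 3 the log2 fold change of Cd74 was 0.77 (edgeR adjusted p = 0.353).

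Of the 5 class II loading genes, H2-DMb1, H2-DMb2 and H2-Ob rose, and H2-DMa and H2-Oa did not pass. H2-DMb2 was at 1.12, 1.08 and 1.32 CPM against 6.95, 2.996 and 8.13 CPM (log2 2.36, SE 0.48, edgeR adjusted p = 0.00954). H2-DMb1 was at 5.95, 11.4 and 3.26 CPM against 38.5, 22.3 and 27.1 CPM (log2 2.09, SE 0.48, edgeR adjusted p = 0.0158), and did not pass on leaving out library 1 of either genotype (0.0569 for AE9a-Ddit4-/- and 0.0575 for AE9a-Ddit4+/+). These β chains of H2-DM shared 4.71% and 4.14% of their stretches of 150 bases with each other. H2-DMa, their common α chain, was at 9.85, 14.9 and 9.10 CPM against 19.5, 11.03 and 26.2 CPM, overlapping groups (log2 0.74, edgeR adjusted p = 0.181).

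H2-O, the inhibitor of H2-DM, has a β chain that rose and an α chain that did not pass. H2-Ob, the β chain, was at 1.87, 0.678 and 0.913 CPM against 14.4, 7.06 and 12.3 CPM, a 9.75-fold rise (log2 3.28, SE 0.53, edgeR adjusted p = 0.00419). H2-Oa was at 5.79, 7.54 and 6.25 CPM against 4.27, 3.26 and 4.75 CPM, so each AE9a-Ddit4-/- library lay below each AE9a-Ddit4+/+ library, but it did not pass (log2 -0.67, SE 0.34, edgeR adjusted p = 0.173). The ratio of H2-DMa to H2-Oa per kb of exon was 0.699 ± 0.107 (SD, n = 3) in AE9a-Ddit4+/+ and 1.83 ± 0.438 (n = 3) in AE9a-Ddit4-/-, without overlap. This ratio covers the α chains only, and neither passed the test. Of the β chains, H2-Ob rose by a larger log2 value (3.28) than H2-DMb1 (2.09) and H2-DMb2 (2.36). The α chain ratio therefore does not describe H2-DM against H2-O as a whole. The ratio of H2-Ab1 to H2-Aa was 1.25 ± 0.0834 in AE9a-Ddit4+/+ and 1.58 ± 0.349 in AE9a-Ddit4-/-. Its groups nearly touched, with 1.338 in AE9a-Ddit4+/+ library 1 and 1.346 in AE9a-Ddit4-/- library 3, while AE9a-Ddit4-/- library 2 was at 1.985.

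Among the class II regulators, the coactivator and the RFX subunits differed. Ciita, at chr16:10480059-10528418, was at 0.507, 0.530 and 0.619 CPM in AE9a-Ddit4+/+, where the limit of detection was 0.163 to 0.198 CPM over the 6 libraries, and at 3.66, 1.12 and 9.03 CPM in AE9a-Ddit4-/-. It rose 8.32-fold (log2 3.06, SE 0.76, edgeR adjusted p = 0.0211), and its order within AE9a-Ddit4-/- (library 3, then 1, then 2) was that of Cd74, H2-Aa, H2-Ab1 and H2-Eb1, and also that of Xist. Its call was lost without AE9a-Ddit4-/- library 3 (log2 2.05, edgeR adjusted p = 0.0646), and also without either library 1 (0.0693) or library 3 (0.0634) of AE9a-Ddit4+/+. Rfxap, an RFX subunit, was the member that fell, from 31.8, 28.1 and 28.1 CPM to 18.8, 19.0 and 15.3 CPM (log2 -0.73, SE 0.21, edgeR adjusted p = 0.0375). The Rfxap groups did not overlap, yet it did not pass without any 1 library (edgeR adjusted p 0.0531 to 0.109). Rfx5 (log2 0.23) and Rfxank (log2 -0.20) did not pass.

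Costimulators and the checkpoint ligand were mixed. Cd274 (PD-L1), at chr19:29367455-29388095, was at 31.4, 30.7 and 72.3 CPM in AE9a-Ddit4+/+ and at 157, 93.3 and 95.4 CPM in AE9a-Ddit4-/- (log2 1.36, SE 0.40, edgeR adjusted p = 0.0369). Library 3 was the highest AE9a-Ddit4+/+ library, and the call was lost without any 1 of the other 5 libraries (log2 1.08 to 1.43, edgeR adjusted p 0.0663 to 0.117). Cd80, a ligand of CD28, was at 7.12, 3.68 and 3.62 CPM against 3.87, 1.47 and 3.98 CPM (log2 -0.63), and Cd86, its relative, at 4.04, 2.30 and 2.23 CPM against 4.34, 4.28 and 5.41 CPM (log2 0.71). Neither passed. Cd40 was near the limit of detection, at 0.0633, 0.280 and 0 CPM against 0.289, 0.395 and 0.557 CPM, and did not pass (edgeR adjusted p = 0.264).

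Markers of cells that carry class II moved with the genotype. In bulk RNA, more cells of a type and more RNA per cell cannot be told apart. Of the fixed B cell list 10 of 12 markers tested rose. The list summed to 213, 74.4 and 25.9 CPM in AE9a-Ddit4+/+. In AE9a-Ddit4-/- it summed to 591, 1493 and 768 CPM, so library 2 was the highest. Most of that sum came from the immunoglobulin genes Ighm, which did not pass, and Igkc. The other 12 genes, a subset chosen after the sums were seen, summed to 2.53, 5.48 and 1.42 CPM against 99.8, 73.2 and 162 CPM. Library 2 was then the lowest of AE9a-Ddit4-/-, so the order of the libraries depended on this choice. Dendritic cell markers rose in 7 of 11 (20.9 to 47.7 CPM against 124 to 193 CPM), and monocyte and macrophage markers in 6 of 14 (197 to 389 CPM against 243 to 683 CPM, overlapping). Of the T and NK cell list 9 of 11 rose (12.1 to 51.9 CPM against 87.9 to 134 CPM), while of the neutrophil list 5 of 12 fell (7102 to 11483 CPM against 1848 to 5064 CPM).

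In the B cell list 3 to 6 of 14 markers were at 0 counts in each AE9a-Ddit4+/+ library, among them Ms4a1 (CD20) in all 3, and 0 to 1 in each AE9a-Ddit4-/- library. In the dendritic cell list 0 to 2 of 12 were at 0 in a library of either genotype, and in the monocyte and macrophage list 1 of 15, Marco, was at 0 in all 6. Among the defining markers, C1qa was at 3.29, 2.18 and 0.959 CPM in AE9a-Ddit4+/+ and at 33.5, 19.9 and 35.5 CPM in AE9a-Ddit4-/-. Itgax was at 3.64, 1.21 and 0.774 CPM against 6.39, 6.88 and 15.1 CPM, and Zbtb46 at 6.03, 1.77 and 1.44 CPM against 5.32, 5.52 and 3.28 CPM. Zbtb46 did not pass (log2 0.61), and Itgax rose (log2 2.33). Among the AE9a-Ddit4+/+ libraries, 7 of the 12 dendritic cell markers, including both of these, were highest in library 1, where the class II molecules were highest, and 5 (Flt3, Tcf4, Ccr9, Clec9a and Ccr7) in library 2. Their sum was highest in library 2 (47.7 CPM, against 35.4 CPM in library 1). Of the markers counted in AE9a-Ddit4+/+, library 1 was also highest for 8 of 14 monocyte and macrophage and 5 of 10 T and NK cell markers. For B cell markers it was 5 of 12, and for neutrophil markers 4 of 12. Cd79a, a part of the B cell receptor complex, was also higher in AE9a-Ddit4-/- (log2 4.76), and Adgre1 did not pass (log2 0.99). The summed CPM of H2-Aa, H2-Ab1, H2-Eb1 and Cd74 were 149.6, 51.9 and 39.4 in AE9a-Ddit4+/+ and 211, 132 and 322 in AE9a-Ddit4-/-. The part of these cells in the member values was not tested.

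**Figure D4:**
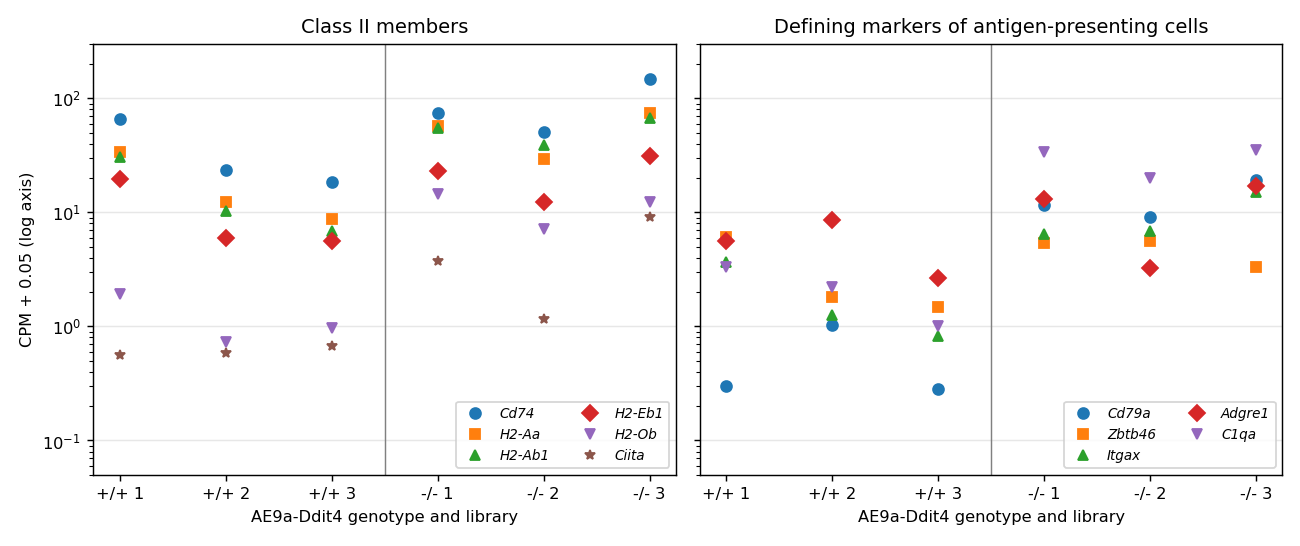
CPM (log axis, 0.05 added) of 6 class II members (left) and of 5 defining markers of B cells, dendritic cells and macrophages (right) in each library. The class II molecules are highest in library 1 of the AE9a-Ddit4+/+ group, and C1qa moves from at most 3.29 CPM to at least 19.9 CPM.

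Of the members, 21 lie in the MHC stretch of chromosome 17 (chr17:33915899-37274484, GRCm38) and 19 on other chromosomes. Of the 21, 12 rose and 0 fell by edgeR, with a median log2 fold change of 1.13. At an unadjusted p below 0.05, 14 were higher and 0 lower, and DESeq2 gave the same counts at its adjusted p. DESeq2 called 23.7% of all genes higher and 15% lower, and the shares at the unadjusted threshold were not counted. By edgeR at an adjusted p below 0.05, the other 134 tested genes of this stretch had 30 higher (22.4%) and 14 lower (10.4%). Without the 10 other genes with an H2 symbol, 6 of which rose, the 124 remaining genes had 24 higher (19.4%), 14 lower (11.3%) and a median of -0.05. H2-Q5, next to H2-Q6, was at 2.88, 6.17 and 1.79 CPM against 166, 153 and 84.8 CPM (log2 5.22, edgeR adjusted p = 0.000893), and H2-T10 rose as well (log2 2.18, edgeR adjusted p = 0.0034). H2-Eb2 was listed at 0 in all 3 AE9a-Ddit4+/+ libraries and at 1.51, 0.593 and 1.82 CPM in AE9a-Ddit4-/-. Unrelated neighbours moved both ways, such as Notch4 (log2 6.27) and Trim10 (log2 -5.92).

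**Figure D5:**
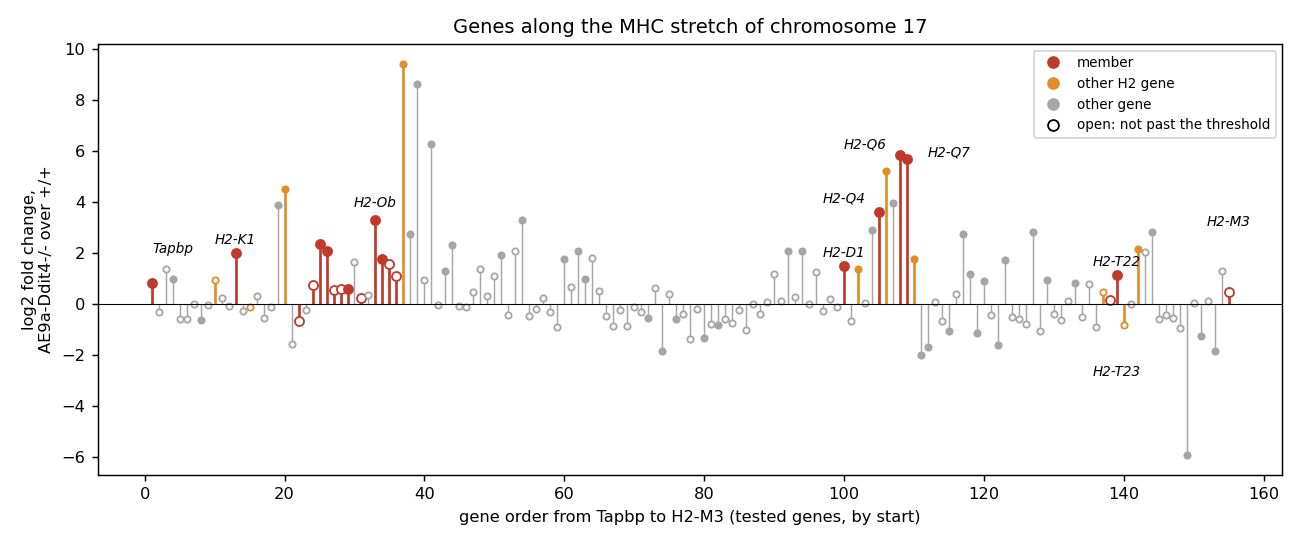
Log2 fold change (AE9a-Ddit4-/- over AE9a-Ddit4+/+) of 155 tested genes in their order along the MHC stretch, with members, other H2 genes and remaining genes coloured apart and open points for genes that did not pass. The Q region holds a run of members and H2 genes that rose, among neighbours of both directions.

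Genes around the pathway were counted from lists of 100 genes, of which 90 were tested. In all 25 rose and 9 fell, beside 19.4% and 10.7% of all genes. Of 14 genes of interferon input 3 rose and 2 fell. Irf1, a transcription factor that acts on Nlrc5 and class I genes, was at 12.3, 27.9 and 20.8 CPM against 175, 73.02 and 57.9 CPM (log2 2.33, SE 0.49, edgeR adjusted p = 0.0114). Irf9 fell the most of this list (log2 -0.95, edgeR adjusted p = 0.0124). Among 7 partners of the class II complex, Ep300 rose (log2 0.83) and Nfyb, a subunit of NF-Y, fell (log2 -0.67).

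Of 9 endosomal proteases and their regulators 3 rose and 1 fell. The largest of these were Lgmn, a protease that cuts antigens (log2 2.02, edgeR adjusted p = 0.0076), and Ctsz (log2 -1.08, edgeR adjusted p = 0.0242). Ctss, which cuts the invariant chain, did not pass (log2 0.20). In the turnover list 2 of 8 rose, led by the tetraspanin Cd63 (log2 3.69, edgeR adjusted p = 0.0015), and 3 fell, led by the ubiquitin ligase March8 (log2 -1.66, edgeR adjusted p = 0.00364). Of 9 genes listed as other class I-like genes 5 rose, led by Procr (log2 4.31). H2-Ke6, on this list by its symbol, is not a class I-like gene and did not pass (log2 -0.12). Of 8 ligands read by NK cells 4 rose. Nectin2 led them, from 0.0791, 0.427 and 0.201 CPM to 24.4, 24.2 and 8.88 CPM (log2 6.33, edgeR adjusted p = 0.00138). Of 11 other costimulators 3 rose, led by Cd276 (log2 6.43), and of 14 class III and extended MHC genes 4 rose, led by C4b (log2 3.31, edgeR adjusted p = 0.0458).

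Exons of 17 members overlap a gene on the other strand, and 7 of these members passed the test. Tap1 and Psmb9 overlap each other by 212 bases. Whether the counting used the strand was not stated, so reads of such partners may not have been told apart. When any 1 library was left out, or the scaling, filter or test was changed, H2-K1, H2-D1, B2m, H2-Q4, H2-Q6, H2-Q7, H2-T22, Nlrc5, Tapbpl, H2-DMb2 and H2-Ob passed each time, which is 11 of the 18.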

How the data were processed

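RNA sequencing of leukemia cells gave 6 libraries, and groups and numbers were taken from the sample titles. The authors deposited 1 table of whole-number counts per gene. The labels name GRCm38 and mm10 as builds, and the aligner, the counting tool and the use of strand were not given in the sources used here. Labels and methods differ on the library kit (mRNA in the former, rRNA-depleted RNA with a directional protocol in the latter). Reads were pairs of 150 bases. In each library the low counts 4, 8 and 12 were over-represented, by 1.40 to 1.62 times, so fragments may have been counted about 4 times. The limit of detection was therefore set at 12 counts, which covers counting error only, since reads are not independent molecules. Every value column of the table was used.

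For the test, edgeR 4.0.16 (R 4.3.3) was run on the counts as deposited, using filterByExpr, TMM factors and robust quasi-likelihood fits, with genotype as the only term. P-values were adjusted by Benjamini-Hochberg over 18375 genes, and the threshold was 0.05. Standard errors were derived from the log2 fold change and its F value. CPM are counts per 1e+06 of the TMM-scaled total. The test was checked on simulated counts in which few genes changed, evenly in both directions, unlike in these data. That check therefore does not cover the scaling or the error rate here. DESeq2 1.42.0 and the other alternatives are given in the closing section. Positions and exon lengths came from GENCODE M21 (GRCm38), which held 99.7% of the identifiers, and promoter windows from RefSeq GRCm38.p6. A spreadsheet had turned 27 symbols into dates, which were restored.

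All 40 members were described by role. Related genes were named where they passed and changed most in each direction of their list, and genes named beyond this rule (Ctss, H2-Q5, H2-T10, H2-Eb2, Notch4, Trim10, and single markers other than the defining ones) were chosen after their values were seen. The members, lists and motifs were chosen with earlier results of these data known. Values of 2 genes on these lists are not reported here, although the counts include them. Ratios within a library carry no test.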

Additional observations from a re-analysis of the deposited data

How the results depend on the processing

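With 3 libraries per group, counts of calls depend on the settings. The 18 members called higher became 11 at an adjusted p below 0.01 and 12 to 17 when 1 library was left out, and were 15 to 23 under the other scalings, filters and tests. Over all genes tested, the share called higher moved as well. It was 19.4% in the main fit, 10.7% at an adjusted p below 0.01 and 14% to 20.3% when 1 library was left out. Under the other scalings, filters and tests it was 11.9% to 23.7%. The 1 lower member became 0 without a filter on low counts, with at least 10 counts in every library, at an adjusted p below 0.01, and with any library left out (0 to 0). The share of all genes called lower was 10.7% in the main fit. Under these settings, in that order, it was 6.21%, 11%, 3.87% and 5.61% to 10.7%. Of the related genes, 25 higher became 11 and 9 lower became 2 at an adjusted p below 0.01, with ranges of 15 to 25 and 5 to 11 when 1 library was left out. Ddit4 kept its direction and its call under each setting (log2 -1.78 to -1.24 without 1 library).

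Replicate numbers did not pair the libraries: deviations of same-numbered libraries correlated at -0.165, -0.194 and -0.0495, and no library correlated best with its own number. With the replicate block, 12 members were higher and 0 lower, and 13 related genes were higher and 2 lower. Of all genes tested, 11.8% were higher and 4.28% lower with this block.

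Over the alternatives for single members, 527 values kept their call, 56 lost it, 12 gained it and 3 changed sign. The last were Rfxank without AE9a-Ddit4+/+ replicate 2 (0.05, and -0.36 to 0.05 over the libraries left out) and Calr without AE9a-Ddit4-/- replicate 1 (0.09) or AE9a-Ddit4+/+ replicate 3 (0.24, and -0.63 to 0.24 over the libraries left out). None of them was called in either direction. Cd40 could not be fitted with at least 10 counts in every library or with counts divided by 4. The causes were not tested. No scaling moved the median log2 fold change of all genes by more than 0.1, the most being -0.064 with library totals alone, and members near the limit of detection, such as Cd40, could not show small differences at this depth.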
